A study of Mus musculus with 2 samples.

Results

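Right ventricular (RV) myocytes are the muscle cells of the chamber that pumps blood into the lungs. They were taken here as the cells that carry the chamber label RV in the deposited per-cell table, with a minimum of 1000 gene UMIs and 500 genes. A UMI, or unique molecular identifier, is a random tag that marks 1 captured RNA molecule. Of 96 cells with this label 90 passed, out of 404 labelled cells in the whole series. The cells came from wild-type C57BL/6 mice of about 3 months, with no fixation and no other treatment. Left ventricular (LV) cells of the same strain, age and libraries, of which 91 passed, serve as the only comparison. Hearts were perfused with collagenase and protease for 9 minutes at 1.5 mL per minute, and cells were sorted by large-particle cytometry into 96-well plates. SCRB-seq libraries were then made with a 6-base cell barcode, a 10-base UMI and 17 PCR cycles.

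The deposited table assigns the cells to 4 libraries, A to D, which held 23, 22, 23 and 22 of the kept RV cells. The labels do not say how many animals were used, or whether a library is a plate, a day or an animal. Cells are not replicates and the series holds these cells as 1 sample, so no difference was tested and no p-value is given. The libraries are shown side by side as the nearest thing to a repeat.

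A ventricular myocyte is packed with sarcomeres, in which myosin thick filaments pull on actin thin filaments along the titin spring, and with mitochondria that burn mainly fatty acids. Contraction is set off by calcium that enters through the L-type channel and is released by the ryanodine receptor. The cells usually have more than 1 nucleus and are very large, so the RNA of a sorted cell comes from nuclei, cytoplasm and mitochondria together. The right ventricle works against the low pressure of the lung circulation.

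The 90 RV cells summed to 5259330 gene UMIs, of which 2988611 were nuclear-encoded. A cell held a median of 50503 gene UMIs, with a lowest of 1469 and a highest of 186563. The library medians were 37001 UMIs in A, 48935.5 in B, 71289 in C and 51452.5 in D. A median of 4177 genes was detected per cell, between 544 and 10741. Mitochondrially encoded genes took a median of 42.9% of a cell's gene UMIs, from 13.02 to 72.3%. The 3 cells closest above the minimum had 1469, 4532 and 4715 UMIs with 544, 677 and 1083 genes. The 3 closest below it had 1034, 1038 and 2332 UMIs with 385, 351 and 311 genes. Libraries A and B shared 21 cell barcodes among kept RV cells, C and D shared 22, and the other library pairs shared none. Cells with the same barcode had profiles, relative to their library, correlated with a median r of 0.0236 between A and B and 0.0195 between C and D. Pairs with different barcodes had medians from -0.00261 to 0.00236.

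The label was checked against 5 ventricular markers: Myl2 and Myl3, the ventricular myosin light chains, Myh6, the main myosin heavy chain of the adult mouse heart, Ttn, titin, and Tnnt2, cardiac troponin T. All 5 were detected in all 90 cells. Together they took a median of 5.90% of a cell's nuclear-encoded UMIs, with quartiles of 5.44 and 6.72%. The library medians were 5.72% in A, 6.61% in B, 5.89% in C and 5.81% in D. The 4 defining markers of atrial muscle were at or near 0: over all 90 cells Nppa gave 1 UMI, Myl7 none, Sln 3 and Myl4 13. A wider atrial list of 13 genes held 1789 UMIs, or 0.0599% of nuclear-encoded UMIs. Most came from Pam, a peptide-amidating enzyme, with 1144 UMIs in 85 cells, and Gpx3, a glutathione peroxidase, with 415 UMIs in 78 cells.

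A pair of cells stood apart with under 2.95% marker RNA. The first, in library C, had 0.735% marker RNA and the most genes of any RV cell, 10741 from 93261 UMIs. It held 668 UMIs of the endothelial list and 285 of the fibroblast list, and its mitochondrial share of 13.02% was the lowest. The second, in library B, had 1.79% marker RNA and a mitochondrial share of 70.6%, and the ribosomal RNA locus CT010467.1 stood there at 324833 per 1000000 nuclear-encoded UMIs. Another cell of library C had 29.0% haemoglobin and other red cell RNA. Genes of 8 lists of non-myocyte cell types took a median of 0.792% of a cell's nuclear-encoded UMIs, and over 2% in 19 cells (4 in A and 5 each in B, C and D). Whether such RNA came from the sorted cell, from another cell in the well or from the medium cannot be told apart. Results that rest on these cells are given with and without them.

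The RV transcriptome was led by a ribosomal RNA locus and by sarcomere genes. Levels are UMIs per 1000000 nuclear-encoded UMIs (CPM), mitochondrial genes being left out of that total, and were not divided by gene length because the method tags 1 end of each molecule. CT010467.1, annotated as ribosomal RNA (chr17:39846353-39848827, minus strand, GRCm38), took 8.43% of all nuclear-encoded UMIs. It stood at 73456 CPM in library A, 87054 in B, 84287 in C and 90738 in D. Next came Ttn (chr2:76703980-76982547, minus strand), with 15166, 22708, 14252 and 18585 CPM in A to D. Tpm1, the tropomyosin of the thin filament, had 14697, 13952, 14150.3 and 13636 CPM. The libraries were closest for Tpm1, with 1.08-fold between the highest and the lowest, and wider for Ttn, with 1.59-fold. These are sums over cells, in which deep cells weigh more. The highest cell for Ttn, in library B, held 4744 Ttn UMIs at 43211 CPM. As medians over cells Ttn stood closer together, at 13084, 15297, 12941 and 15863 CPM in A to D, with D highest.

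Over all cells the other sarcomere genes among the 20 most abundant were Tnnt2 at 12869 CPM, Myh6 at 10429, Myl2 at 10335, Myl3 at 9559, Actc1, cardiac actin, at 7915 and Tnni3, cardiac troponin I, at 7079 CPM. Slc25a4, the ADP/ATP carrier of the inner mitochondrial membrane, stood at 8625 CPM, and Atp2a2, the calcium pump of the sarcoplasmic reticulum, at 6116 CPM. The beta-globin gene Hbb-bs, a red cell product, was also among them at 6037 CPM. The remaining 8 are not known as products specific to heart muscle: Camk1d at 12432 CPM, Cmss1 at 9942, Trim30a at 6259, Gm20388 at 5993, Mir99ahg at 5787, Jarid2 at 4955, Gm43841 at 4440 and Mir6236 at 4105 CPM. Counts were made per gene model and the strand setting is not given in the sources used here, so RNA of an overlapping or antisense unit cannot be told apart from the annotated transcript. Gm20388 is a model that spans 4435 kb.

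**Figure D1:**
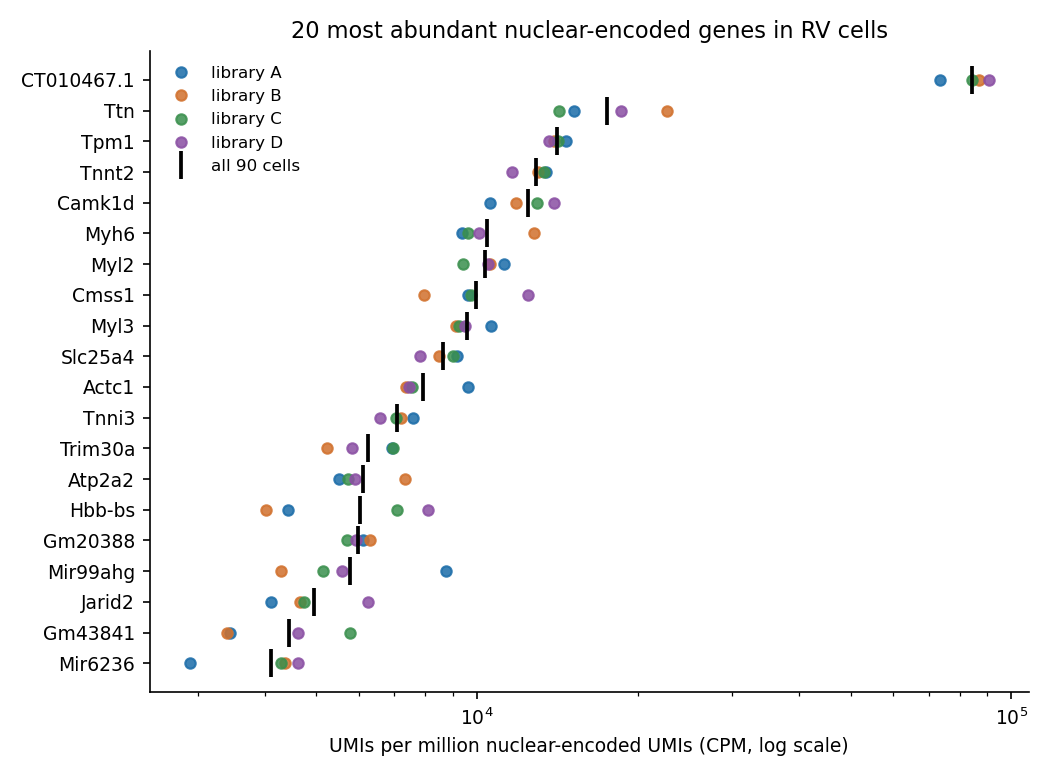
Level of the 20 most abundant nuclear-encoded genes in RV cells, as UMIs per 1000000 nuclear-encoded UMIs on a log axis; coloured points are the sums of the 4 libraries and black ticks the sum of all 90 cells. CT010467.1 lies at 84297 CPM, far to the right of Ttn at 17528 CPM, and Hbb-bs and Mir99ahg have the widest spread between libraries, at 2.01-fold and 2.04-fold.

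The 10 most abundant nuclear-encoded genes held 19.0% of the nuclear-encoded UMIs, the top 20 held 24.9% and the top 100 held 40.2%. In the libraries the top 20 took 23.7% in A, 25.2% in B, 24.6% in C and 26.0% in D. By function, thin filament genes took 4.73% of nuclear-encoded UMIs, nuclear-encoded oxidative phosphorylation genes 3.58%, thick filament and M-band genes 3.43%, and titin and Z-disc genes 3.11%. Calcium handling took 1.73%, fatty acid uptake and oxidation 1.61%, red cell genes 1.30%, glucose use 1.10% and cytosolic ribosomal proteins 1.08%. Of all gene UMIs, mitochondrial included, the ribosomal RNAs mt-Rnr2 and mt-Rnr1 took 20.98% and 10.6%. The mitochondrial mRNA with the most counts was mt-Cytb, cytochrome b, at 2.64%, followed by mt-Nd1 at 2.56%. Some other mitochondrial mRNAs had almost no counts over all RV cells, with 15 UMIs for mt-Co2, 46 for mt-Nd3 and 51 for mt-Atp6. Why was not tested, so the order describes the counts and may not be that of the RNAs in the cell.

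Detection was broad across the pool and narrow in any single cell. At least 1 UMI in an RV cell was found for 20948 nuclear-encoded genes, of which 3979 were seen in 1 cell only. Genes seen in at least 50% of cells numbered 2848, in at least 90% 639, and in every cell 93. When each cell was thinned to 10000 nuclear-encoded UMIs, 83 cells were deep enough and 7 were left out (4 of them in A, 2 in B, 1 in C and 0 in D). The thinned cells held a median of 2590 genes, between 1957 and 4494, and 135 genes were found in every one of them. Thinned medians were 2743 genes in A, 2598.5 in B, 2545.5 in C and 2477 in D. The order of the libraries therefore differed from that of their unthinned medians of 4035, 4004, 4471 and 4140.5 genes.

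Spread between cells was measured within each library as the extra CV. This is the SD of a gene's share between cells divided by its mean, after the variance that counting UMIs alone would give was taken off. Squares of counts are summed over cells, so deep cells weigh more than shallow ones and 1 deep cell can move a library's value. In library B the deepest cell held 109786 nuclear-encoded UMIs, against a median of 26638.5. A value of 0.5 means that the share varied by 50% of its mean around that mean. It was computed for the 2272 genes with a mean of at least 2 UMIs per RV cell. The median gene had an extra CV of 0.584 in library A, 0.650 in B, 0.748 in C and 0.753 in D. Of the 2272 genes 1050, or 46.2%, reached 0.5 in every library. This count followed abundance closely: 65.2% of 1392 genes with a mean of 2 to 5 UMIs reached it, 28.5% of 445 genes with 5 to 10, 3.29% of 365 genes with 10 to 50, and 5.71% of 70 genes with 50 or more.

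The synthetic ERCC spike-in RNAs, which are added to the reaction and do not come from the cell, gave another baseline. How much was added per well is not given in the sources used here. A cell held a median of 489 spike-in UMIs, from 31 to 1294. Of 15 spike-in species with a mean of at least 2 UMIs, 7 or 46.7% also reached 0.5 in every library, and all 7 had means of 10.1 UMIs or less. Spike-in species with a mean of 2 to 5 UMIs had a median extra CV of 0.947, against 0.852 for genes of that abundance. From 10 to 50 UMIs the medians were 0.385 for spike-ins and 0.417 for genes, and from 50 UMIs up they were 0.180 and 0.318. At low abundance the genes of RV cells were thus no more spread than spike-in RNA, and from 50 UMIs up their values were higher. Each spike-in count was set against the spike-in total of its cell. The 4 species from 50 UMIs up had means of 79.9 to 113 UMIs and make up a large part of that total. This lowers their spread, by an amount not measured, so the contrast from 50 UMIs up is not an even one.

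For each library a curve was fitted through the spike-in values, of the form CV squared = a / mean + b. The fitted b was 0 in A, B and C and 0.00158 in D. The most abundant spike-in species had a mean of 113 UMIs, and for genes above that the curve was extended. At 10 UMIs it gave an extra CV of 0.589 in A, 0.572 in B, 0.597 in C and 0.739 in D, and at 100 UMIs 0.186, 0.181, 0.189 and 0.237. The median gene stood at 0.766 of this spike-in trend, and 337 genes (14.8%) stood above it. By abundance, the median ratio to the trend was 0.729 for genes with 2 to 5 UMIs, 0.766 for 5 to 10, 0.906 for 10 to 50 and 1.42 for 50 or more. The part of a gene's spread beyond the trend was taken as the square root of the difference of the squares. This baseline was added after the data were seen.

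**Figure D2:**
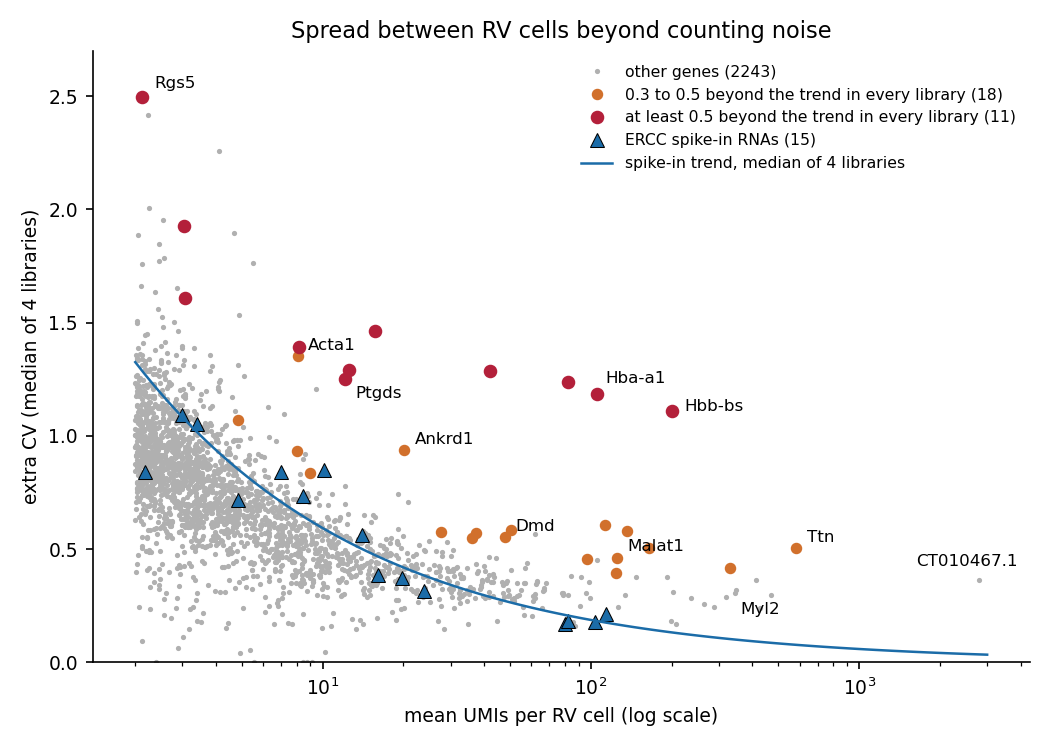
Extra CV between RV cells (median of the 4 libraries) against mean UMIs per cell on a log axis, for 2272 genes and 15 ERCC spike-in RNAs (triangles), with the spike-in trend as a line. The 4 haemoglobin genes stand above 1.1 at means of 42.1 to 200.5 UMIs, where the trend is under 0.3, while Myl2 lies at 0.308 and most genes under 5 UMIs lie at or below the trend.

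At least 0.5 beyond the spike-in trend in every library were 11 genes, 0.484% of those measured, and at least 0.3 beyond it were 29 genes, or 1.28%. The 11 were the haemoglobin genes Hbb-bs, Hbb-bt, Hba-a1 and Hba-a2, the vascular genes Rgs5 and Ptprb, Plxna2, Ptgds, and 3 gene models named Gm10800, Gm10801 and Gm21738. A further 29 genes reached 0.5 in 3 of the 4 libraries and 1623 reached it in none. Leaving out library A gave 32 genes, B 18, C 10 and D 19, and with 3 libraries in place of 4 the rule is easier to meet. Without the pair of cells low in ventricular markers, 9 of the 11 remained. Plxna2 fell to 0 beyond the trend in library C, against 2.09 with all cells. Rgs5 then had a mean of 1.26 UMIs and was no longer measured, so it had passed the minimum of 2 UMIs only through those cells. With the highest cell of each gene and library left out instead, 8 genes passed, 7 of them among the 11. Rgs5, Ptprb, Plxna2 and Gm21738 did not pass, and Slc35f5 came in. Without the 19 cells over 2% non-myocyte RNA there were 10, of which 8 were among the 11: Rgs5, Plxna2 and Ptgds were not, and Acta1 and Fabp4, a fatty acid carrier of capillary endothelium and fat cells, came in.

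Haemoglobin RNA was found in nearly every RV cell at very unequal levels. Hbb-bs (chr7:103826534-103828096, minus strand) was at 0 CPM in 1 cell, had a median of 2907 CPM and reached 119039 CPM. Its library medians were 1809, 1122, 4709 and 2797 CPM in A to D, and its extra CV was 0.872, 1.11, 1.11 and 1.46. Hba-a1, an alpha-globin gene, ranged from 40.7 through a median of 1915 to 69951 CPM. The quartiles of both genes were over 10-fold apart, at 10.9-fold for Hbb-bs and 12.0-fold for Hba-a1. The 4 haemoglobin genes varied together, with mean within-library correlations between 0.944 and 0.988 (22 or 23 cells per library). Hba-a1 and Hba-a2 are near-identical copies, as are Hbb-bs and Hbb-bt, so reads could be split within each pair and single values are uncertain. All 6 genes of the red cell list had UMIs and they summed to 38816, with every RV cell holding some. The lowest share of the list in a cell was 0.0484%, the median 0.669% and the highest 29.0%.

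Genes of blood vessels had few UMIs in most RV cells and were high in a few. Rgs5, a regulator of G-protein signalling that marks pericytes (chr1:169655501-169695813, plus strand), was at 0 in 57 of 90 cells and reached 937 CPM. The 5 highest cells held 72.1% of its UMIs. Pecam1, an adhesion protein of endothelium, was likewise at 0 in 57 cells and reached 899.97 CPM. Ptprb, the endothelial phosphatase VE-PTP, was at 0 in 47 cells with 58.8% of its UMIs in 5 cells. Plxna2, a semaphorin receptor that is in none of the vessel lists, was at 0 in 41 cells with 54.9% in 5 cells. Without the marker-poor pair its mean correlation was 0.0604 with Rgs5, 0.0930 with Ptprb and 0.292 with Pecam1.

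Across the whole endothelial list of 12 genes, RV cells held 1875 UMIs in 82 of 90 cells, and 35.6% of them came from the marker-poor cell of library C. The mural list gave 721 UMIs in 72 cells, the fibroblast list 1004 in 71 cells, the mesothelial list 208, the endocardial list 258, the macrophage and leukocyte list 162 and the Schwann and neuronal list 40. The co-variation of the vessel genes leaned on that cell: Rgs5 and Pecam1 had a mean correlation of 0.583 with it, and 0.319 without the marker-poor pair, when library C gave -0.261. Rgs5 and Nrp1, a co-receptor of vascular growth factor, had 0.693 and 0.484. Gsn, gelsolin, and Dcn, the matrix proteoglycan decorin, had 0.735 and 0.710, with 0.0926 in library B. Each of them was at 0 in 42 cells.

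Ptgds, the lipocalin-type prostaglandin D synthase, had another pattern. It was at 0 in 9 cells only, with a median of 182 CPM and a highest of 2513 CPM. Its beyond-trend spread was 1.01, 1.24, 0.694 and 1.13 in A to D. Its mean correlation with Acta1 was 0.634 (0.594, 0.663, 0.409 and 0.869 in A to D), and 0.622 without the marker-poor pair.

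Acta1 and Ankrd1, genes that ventricular muscle is known to raise under stretch and load, were the members of their list that stood 0.3 beyond the trend in every library. Acta1, skeletal muscle actin, was at 0 in 21 cells, had a median of 60.5 CPM and reached 3418 CPM. Its library sums were 516 CPM in A, 97.4 in B, 208 in C and 199 in D. Ankrd1, a titin-binding ankyrin repeat protein, was at 0 in 2 cells, had a median of 358 CPM and reached 4554 CPM, with 34.6% of its UMIs in 5 cells. Its library sums were 1011, 609.7, 395 and 533 CPM. Beyond the trend, Acta1 stood at 1.54, 0.387, 0.725 and 1.94 in A to D, and Ankrd1 at 1.72, 0.325, 0.850 and 0.707, so library B was lowest for both. The genes were high in the same cells in A and D (r of 0.849 and 0.610) and not in B and C (0.0193 and 0.143).

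Of the 11 members of the stretch and stress list with UMIs 7 were measured, and 4 of these reached an extra CV of 0.5 in every library, beside 46.2% of all measured genes: Acta1, Ankrd1, Nppb and Rcan1. Nppb, B-type natriuretic peptide, was at 0 in 33 cells with a highest of 647 CPM. Rcan1, a calcineurin inhibitor, had 0.708 to 1.12. Nppb and Rcan1 have means of 3.72 and 2.24 UMIs, where spike-ins reach 0.5 too, and neither stood 0.3 beyond the trend in every library. The other measured members, Csrp3, a Z-disc LIM protein, Xirp2, a Xin repeat protein, and Myh7, the slow myosin heavy chain, had median extra CVs of 0.343, 0.472 and 0.525. Csrp3 was detected in all 90 cells at 1176 CPM and Myh7 in 88 cells at 535 CPM.

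The promoters of Acta1 and Ankrd1 are shown because these genes were high in the same cells in libraries A and D and both are known targets of the TEAD factors, which bind the M-CAT motif CATTCC. The windows hold the 250 bases before the RefSeq start (GRCm38.p6, written 5′ to 3′ on the gene's strand: Acta1 chr8:123894776-123895025 and Ankrd1 chr19:36119845-36120094, both minus strand). Capitals mark this motif on either strand.
Acta1: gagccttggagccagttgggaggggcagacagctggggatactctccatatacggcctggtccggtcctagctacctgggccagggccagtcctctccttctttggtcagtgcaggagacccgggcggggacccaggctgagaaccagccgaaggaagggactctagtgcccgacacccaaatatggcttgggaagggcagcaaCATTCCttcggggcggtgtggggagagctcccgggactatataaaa
Ankrd1: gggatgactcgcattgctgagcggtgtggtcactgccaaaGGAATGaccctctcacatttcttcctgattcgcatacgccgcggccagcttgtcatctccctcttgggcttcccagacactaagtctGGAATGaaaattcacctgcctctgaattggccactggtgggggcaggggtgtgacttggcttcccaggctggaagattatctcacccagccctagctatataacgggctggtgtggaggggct
Acta1 held 1 match on its own strand and Ankrd1 held 2 on the other strand. A match on either strand was present in 12.6% of all 32851 promoter windows of this length and in 11.6% of 2339 windows of measured genes. The stretch and stress list was counted by gene, with a match in any window of the gene, and 5 of 11 genes had one. The shares by window and by gene are not directly comparable. A match describes the letters only, and binding was not measured.

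**Figure D3:**
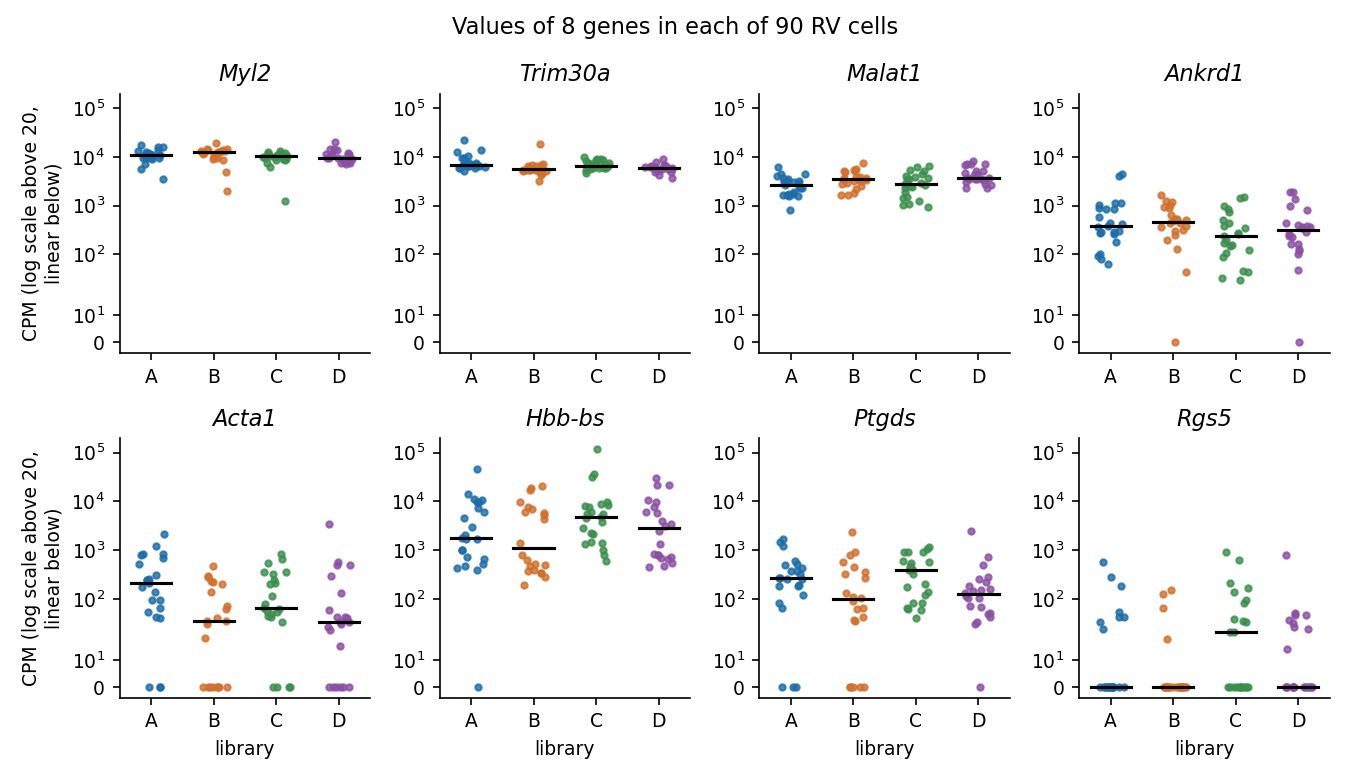
Level of 8 genes in each of the 90 RV cells by library, as CPM on an axis that is linear below 20 and logarithmic above, with the library medians as bars. Myl2 and Trim30a form tight bands apart from a few cells, Malat1 and Ankrd1 spread more widely, and Acta1, Hbb-bs, Ptgds and Rgs5 cover a far wider range, with 57 cells at 0 for Rgs5.

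The 29 genes at least 0.3 beyond the trend in every library hold 18 besides the 11. Most of them are given here in groups whose members were correlated. One group held RNAs that were high in the same cells as the ribosomal RNA locus or as Jarid2: Cmss1, Jarid2, Cdk8, Mir6236 and the predicted transcripts Gm19951 and D130009I18Rik. Jarid2, a Polycomb cofactor, ranged from 2028 through a median of 3745 to 27526 CPM. Its mean correlation was 0.957 with Gm19951 and 0.951 with D130009I18Rik. CT010467.1 itself ranged from 26496 through 79942 to 324833 CPM and correlated most closely with Camk1d, at a mean of 0.923 (0.895, 0.958, 0.901 and 0.937 in A to D). Without the marker-poor pair the value was 0.893. Its next partners were Mir6240 at 0.882, Cdk8 at 0.827, Cmss1 at 0.808 and Jarid2 at 0.772, which were 0.817, 0.707, 0.786 and 0.665 without the pair. In library B alone, Cdk8 then had 0.404 and Jarid2 0.496. Across cells the share of mitochondrially encoded RNA also followed CT010467.1, with a mean Spearman rho of 0.610 (0.686, 0.457, 0.782 and 0.518). The mitochondrial genes lie outside the CPM total, but all points share the depth of their cell.

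Lars2, Gphn and Il31ra were correlated with each other and also with Cmss1 of that group. The mean correlation was 0.874 between Lars2 and Gphn and 0.871 between Gphn and Il31ra. Cmss1 had 0.845 with Gphn, 0.8293 with Lars2 and 0.826 with Il31ra, close to its 0.831 with Jarid2. Without the marker-poor pair these were 0.844, 0.800 and 0.850, against 0.732 with Jarid2 (0.502 in library B) and 0.567 with Cdk8. Gphn, gephyrin, ranged from 129 through a median of 2772 to 16893 CPM. The models Gm10800, Gm10801 and Gm21738 also moved as one, with correlations from 0.925 to 0.964. Gm10801 was at 0 in 10 cells and reached 4471 CPM. What RNA these gene models counted was not tested.

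A further group held long myocyte genes with Malat1, a long non-coding RNA that stays in the nucleus: Ttn, Dmd, Slc8a1 and Erbb4. Malat1 (chr19:5795690-5802672, minus strand) ranged from 827 through a median of 3296 to 8217 CPM. Dmd, dystrophin, whose model spans 2257 kb on the X chromosome, was at 0 in 3 cells, had a median of 1183 CPM and reached 4133 CPM. Dmd and Malat1 correlated at 0.688, 0.695, 0.733 and 0.729 in A to D. Malat1 also correlated with Cacna1c, the L-type calcium channel, at a mean of 0.652, with Ttn at 0.610, with Rbm20, the splicing regulator of titin, at 0.605, and with Trdn, triadin of the calcium release complex, at 0.579. Leaving out the marker-poor pair gave 0.717 for Dmd and 0.646 for Ttn. Ttn ranged from 1492 through 14550 to 43211 CPM, and with Ryr2, the ryanodine receptor, it had 0.667, with 0.267 in library D.

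Myl2 varied with short mRNAs of the sarcomere and of energy metabolism. Myl2 (chr5:122100951-122113472, plus strand) ranged from 1257 through a median of 10783 to 19921 CPM. Its closest partners were Myl3 at 0.719, Cryab, the small heat shock protein alpha-B crystallin, at 0.702, Atp5k, an ATP synthase subunit, at 0.697, Fabp3, the heart fatty acid carrier, at 0.688 and Tnni3 at 0.674. These values leaned on the marker-poor pair and were 0.647, 0.557, 0.515, 0.580 and 0.574 without it. Malat1 and Myl2 had a mean correlation of -0.358, with -0.357, -0.448, -0.0735 and -0.554 in A to D, so library C was near 0. Without the marker-poor pair the mean was -0.387. Ttn and Myl2 had a mean of -0.258, with 0.383 in library C. Leaving out the pair gave a mean of -0.463 and -0.181 in library C, so every library was then negative. Whole gene lists did not all vary against Malat1. Their mean Spearman rho with it was -0.0374 for thin filament genes and 0.275 for thick filament genes. It was -0.134 for oxidative phosphorylation and 0.276 for fatty acid genes. Calcium handling had 0.668 and titin and Z-disc genes 0.561, both positive in every library. For the correlations between single genes, which are not on the same measure as these rho values, the median over all pairs of measured genes was 0.00615. Of these pairs 1% lay below -0.266 and 1% above 0.326.

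Gene span ordered these correlations over the whole set of measured protein-coding genes. Span is the distance from start to end of the gene model, introns included. The 544 shortest genes, up to 10.2 kb, had a median correlation of -0.119 with Malat1 and 0.175 with Myl2. The next 543 genes, up to 32.1 kb, had -0.0210 and 0.104. The following 543, up to 101 kb, had 0.0854 and -0.0206, and the 544 longest had 0.182 and -0.136. The share of genes closer to Malat1 than to Myl2 was 15.3, 34.6, 65.2 and 83.6% in that order. Every library had the same order of medians for Malat1 and for Myl2, as the points on the plot of correlation by span show. Without the marker-poor pair the shares were 17.3, 39.6, 67.0 and 82.0%. Genes of a cell share its depth and its library, so the correlations are not independent of each other.

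**Figure D4:**
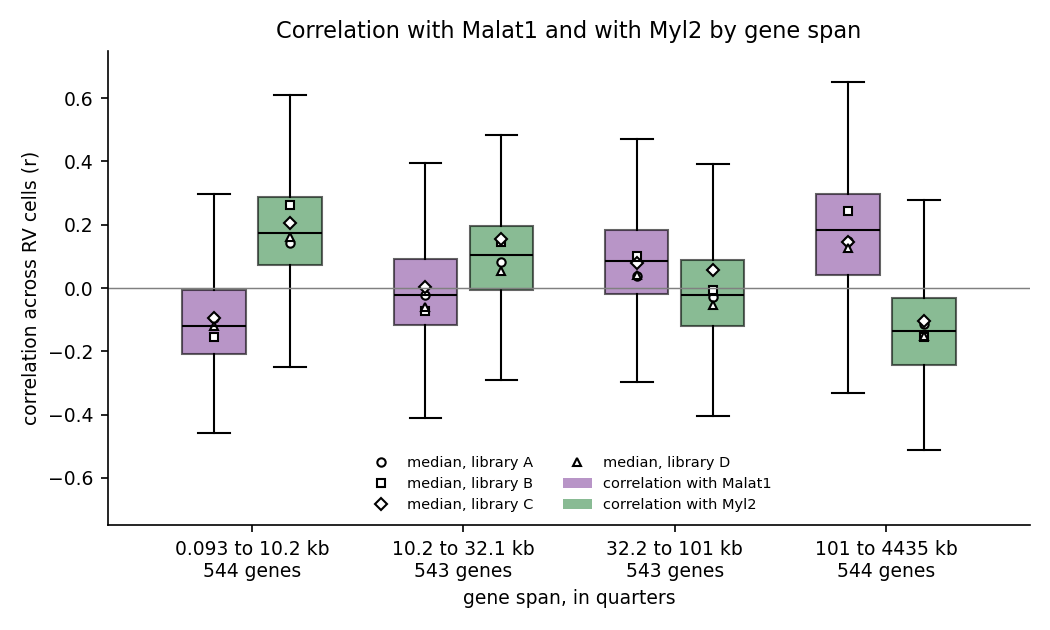
Within-library correlation of each measured protein-coding gene with Malat1 (purple) and with Myl2 (green) across RV cells, in 4 bins of gene span; boxes show the median and quartiles, whiskers the most extreme genes within 1.5 box lengths, and symbols the median of each library. From the shortest to the longest bin the medians with Malat1 run -0.119, -0.0210, 0.0854 and 0.182, and those with Myl2 run 0.175, 0.104, -0.0206 and -0.136.

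Among the 25 protein-coding genes at least 0.3 beyond the spike-in trend, the median span was 74.5 kb and 11 (44.0%) spanned over 100 kb, against a median of 32.1 kb and 25.3% over 100 kb for all 2175 measured protein-coding genes. Among protein-coding genes with a mean of at least 10 UMIs, the 83 that span over 100 kb had a median ratio to the trend of 1.05, and the shorter ones 0.922. The longer genes had the higher value in each library: 0.822 against 0.685 in A, 1.201 against 1.03 in B, 1.28 against 1.23 in C and 0.886 against 0.796 in D.

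Gene groups of the myocyte ordered as follows by spread. No measured member reached an extra CV of 0.5 in every library among 9 ventricular myocyte genes, 8 thick filament genes or 26 nuclear-encoded oxidative phosphorylation genes, against 46.2% of all genes, which have lower means. Their median extra CVs were 0.360, 0.368 and 0.327. Thin filament genes had 1 of 8 (Acta1), calcium handling 1 of 15, fatty acid uptake and oxidation 3 of 23, titin and Z-disc genes 3 of 14 and glucose use 4 of 15. Potassium and sodium channels had 4 of 9, cardiac transcription factors 4 of 10, immediate-early genes 2 of 14, heat shock genes 4 of 16 and cytosolic ribosomal proteins 1 of 23.

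Set against the spike-in trend at the same mean UMIs, the order was different. The most abundant spike-in species had a mean of 113 UMIs. Without the marker-poor pair Myl2, Tnnt2 and Ttn had means of 349, 434 and 593 UMIs, so their ratios rest on a curve extended beyond the spike-ins. That curve keeps falling, and the ratio of such genes can rise with abundance alone. The median ratio to the trend was 6.10 for 4 red cell genes, 2.52 for ventricular myocyte genes, 2.07 for thin filament genes, 1.28 for thick filament genes, 1.16 for titin and Z-disc genes, 1.15 for stretch and stress genes and 1.05 for calcium handling. It was 1.00 for oxidative phosphorylation, 0.900 for glucose use, 0.859 for fatty acid genes, 0.845 for immediate-early genes, 0.830 for transcription factors, 0.796 for potassium and sodium channels, 0.787 for heat shock genes and 0.741 for ribosomal proteins, beside 0.766 for all genes. The values of the contractile lists leaned on libraries B and C and on the marker-poor pair. Without that pair the median ratio was 1.54 for ventricular myocyte genes, 1.58 for thin filament genes, 1.199 for thick filament genes, 1.06 for titin and Z-disc genes, 0.868 for oxidative phosphorylation and 0.925 for calcium handling, beside 0.755 for all genes. For ventricular myocyte genes the library medians without it were 1.14, 3.27, 1.61 and 1.30 in A to D, so library B stood highest. Myl2 was 0.0956, 0.365, 0.363 and 0.2004 beyond the trend in A to D with all cells, and 0.354 in B and 0.119 in C without the pair.

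**Figure D5:**
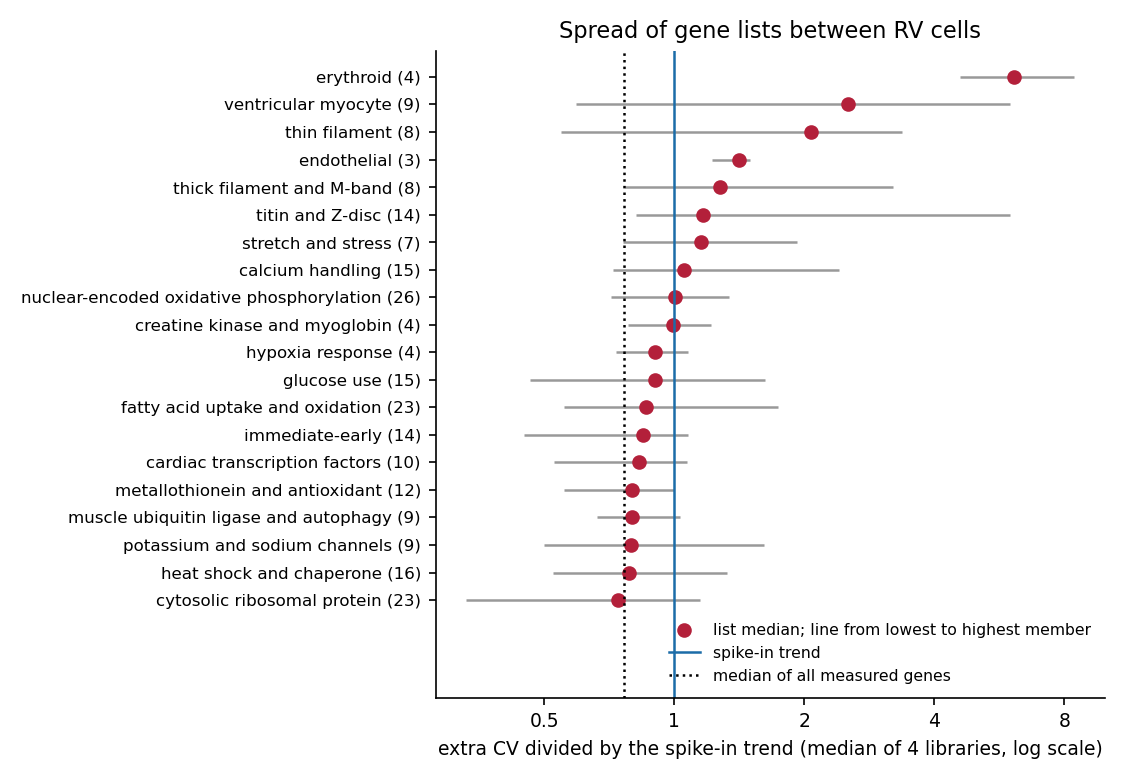
Extra CV between RV cells divided by the spike-in trend at the same mean UMIs, for the measured members of 20 gene lists (numbers in brackets); dots are list medians and lines run from the lowest to the highest member, on a log axis. With all 90 cells, red cell genes lie highest at 6.10, the ventricular, thin filament and thick filament lists lie at 2.52, 2.07 and 1.28, and 11 lists have medians under 1, from 0.741 to 0.992.

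Single genes of these lists ranged as follows. Fos, an immediate-early transcription factor, was at 0 in 7 cells with a median of 225.5 and a highest of 1649 CPM, and its ratio to the trend was 0.946. Kcnd2, a channel subunit of the transient outward current, was at 0 in 5 cells with a median of 355 and a highest of 2111 CPM, and an extra CV of 0.887, 0.603, 1.23 and 0.497 in A to D, which was above the trend in A to C and at 0.967 of it in D. Hspa1a, an inducible heat shock protein with a near-identical copy, Hspa1b, was at 0 in 34 cells with a highest of 499.6 CPM and a ratio to the trend of 0.729. Mb, myoglobin, had a median of 954 CPM in library A against 396, 484 and 536 in B, C and D, and a median extra CV of 0.384 within libraries, at 0.940 of the trend.

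The steadiest genes with a mean of at least 10 UMIs were Cftr, Cttnbp2, Plcxd3, Scnn1g, Dlgap1, Trim30a, March3, Gm20388, Nkain2 and Smchd1. Cftr, a chloride channel gene (chr6:18170687-18322768, plus strand), ranged from 1149 through a median of 2558 to 4941 CPM, with an extra CV of 0.104, 0.207, 0.182 and 0.136. Trim30a ranged from 3179 through 6324 to 22106 CPM, with 0.126, 0.256, 0.210 and 0.117. Scnn1g, an epithelial sodium channel subunit, had at most 0.250 in a library and no spread beyond counting in A. Trim30a varied with Afm at 0.717, Nkain2 at 0.698 and Mir99ahg at 0.695. Most of these genes are not known as heart muscle genes, and which RNA the counts at them came from was not tested.

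Sex-linked RNA did not split the RV cells into separate groups. Xist, the X-inactivation RNA of female cells, and Ddx3y, a Y-linked helicase, were found together in 41 of 90 cells. Xist alone was found in 11 cells, Ddx3y alone in 15 and neither in 23. In each library cells with both were present, 9 in A, 7 in B, 13 in C and 12 in D. Ddx3y has a close copy on the X chromosome, Ddx3x, and the Y-linked genes Kdm5d and Uty gave 1 and 2 UMIs in all, so Ddx3y alone does not mark a sex here. Xist had an extra CV of 0.881 to 1.23.

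Library sums differed for many genes of low abundance. Of the 2272 measured genes 1380, or 60.7%, had at least 1.5-fold between the highest and the lowest library. Among the widest were Phip, at 9.77 CPM in A, 150.3 in B, 45.2 in C and 68.7 in D, and then Cep350, Erbin, Cops4, Acot7, Ssbp2, Vamp8, Gm17660 and Coq2. Among genes with a mean of at least 5 UMIs the count was 328 of 880, or 37.3%. At higher levels the difference was smaller, as for Myl2 with 11222, 10593, 9425 and 10490.1 CPM. Each library sum rests on 22 or 23 cells, and genes of low abundance vary widely between cells of the same library. Whether libraries differ by animal, by preparation or by which cells were sampled cannot be told apart.

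RV cells were set against LV cells over the 1888 genes measured in both. In RV cells 759 genes, or 40.2%, reached an extra CV of 0.5 in every library, and in LV cells 844, or 44.7%. Both held 537 genes, which is 70.8% of the RV and 63.6% of the LV genes. The median extra CV was 0.538, 0.615, 0.690 and 0.693 in RV cells of libraries A to D, against 0.574, 0.709, 0.669 and 0.758 in LV cells. The mean difference, RV minus LV, was -0.0441 with an SD of 0.0492 over the 4 libraries, so it was smaller than the spread between libraries, and RV was lower in 3 of 4. Thinned to 10000 UMIs per cell the difference was -0.0407 (SD 0.0280), with RV lower in 4 of 4 libraries. Across genes the values of RV and LV cells were correlated with r = 0.827 and rho = 0.831. Genes are not independent and low counts raise both values.

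At least 0.5 beyond the spike-in trend in every library were 11 of the genes in RV cells and 18, or 0.953%, in LV cells. The 7 shared genes, 63.6% of the RV and 38.9% of the LV genes, were the 4 haemoglobins and Gm10800, Gm10801 and Gm21738. Rgs5, Ptprb, Plxna2 and Ptgds passed in RV cells and missed in LV cells through 1 library each. Rgs5 stood at 1.28, 1.63, 2.42 and 1.47 in RV cells, against 0, 3.29, 0.767 and 2.32 in LV cells. Ptprb stood at 0.662, 0.546, 2.06 and 1.11 in RV cells, against 2.45, 2.38, 0 and 1.29 in LV cells. Plxna2 stood at 0.526, 1.13, 2.09 and 1.12 in RV cells, against 1.45, 0, 1.37 and 0.658 in LV cells. For these 3 genes LV cells had the higher value in at least 1 library. Their RV values in library C leaned on the marker-poor cell there. Without the marker-poor pair Rgs5 stood at 0.867 in C, Ptprb at 1.24 and Plxna2 at 0. Values of LV cells without such cells were not computed. Ptgds stood at 1.01, 1.24, 0.694 and 1.13 in RV cells, against 0.669, 0.756, 0.153 and 0.889 in LV cells, and was higher in RV in 4 of 4 libraries. Acta1, Ankrd1, Dcn, Gsn, Fgf13, Mir6236 and 5 others passed in LV cells and missed in RV cells. Acta1 stood at 1.54, 0.387, 0.725 and 1.94 in RV cells, against 1.34, 1.41, 1.85 and 1.06 in LV cells, so the values overlapped and library B set the call. Ankrd1 stood at 1.72, 0.325, 0.850 and 0.707 in RV cells, against 0.582, 0.844, 0.937 and 0.929 in LV cells. Hbb-bs stood at 0.855, 1.10, 1.10 and 1.45 in RV cells, against 1.23, 0.713, 0.757 and 0.798 in LV cells, higher in RV in 3 of 4 libraries. None of these differences was tested.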

How the data were processed

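Single myocytes were profiled with SCRB-seq, which tags 1 end of each transcript. The deposited tables give whole-number UMI counts and read counts per gene and cell, made by the authors. The submitters' processing notes name STAR 2.5.4b, featureCounts and the build GRCm38. How UMIs were collapsed, and with which annotation and strand setting, was not given in the sources used here. Gene IDs were matched to GENCODE M21 (24489 of 24522), and 21 read-count columns without a label were left out.

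A cell needed 1000 gene UMIs and 500 genes to be kept, and no doublet caller was run. CPM was scaled to 1000000 nuclear-encoded UMIs, and 3 counts over the RV pool equal 1.00 CPM. Depth was 1469 to 186563 gene UMIs per cell. Extra CV was computed per library with numpy 2.4.6 and scipy 1.17.1 under Python 3.11.15 (tables in pandas 2.3.3, plots in matplotlib 3.10.9), and the scripts were tested on simulated data. Correlations are Pearson correlations of count residuals within a library, averaged over 4 libraries. Named were the 20 most abundant genes, the 20 with the highest and 10 with the lowest spread, 10 with the largest library differences, and list members. The spike-in trend, the genes beyond it, their partners and the pair of cells low in markers were added after the data were seen. Members and lists were chosen with earlier results of these data known. Alternatives covered the total used, gene minimums, thresholds, depth, read counts, excluded cells and excluded libraries.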

Additional observations from a re-analysis of the deposited data

Results flagged for a closer look

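Of 78 quantities compared over the 4 libraries of RV cells, 4 had a library far from the other three, and chance gives about 5% of such groups. The median extra CV of calcium handling genes was 0.569 in library C, against 0.459, 0.443 and 0.457 in A, B and D. Genes of glucose use took 1.29% of nuclear-encoded UMIs in library A, against 1.04, 1.06 and 1.04% in B, C and D. Cytosolic ribosomal protein genes took 1.19% in library C, against 1.03, 1.05 and 1.03% in A, B and D. Actc1, cardiac actin, stood at 9613 CPM in library A, against 7361, 7568 and 7470.1 CPM in B, C and D.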

How the results depend on the processing

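The count of genes with an extra CV of at least 0.5 in every library, 1050, depended on the unit, the minimum and the threshold. It was 1975 with read counts, 2471 and 143 with gene minimums of 1 and 5 UMIs, 1763 and 436 with thresholds of 0.3 and 0.7, and 11 after the spike-in trend was taken off. The median extra CV over genes, 0.709, was 1.33 with read counts, 0.908 and 0.474 with minimums of 1 and 5, and 0.626 without the highest cell of each gene and library. The 11 genes beyond the spike-in trend became 29 at a threshold of 0.3, 6 at 0.7 and 7 with spike-ins scaled by nuclear-encoded UMIs, and leaving out 1 library gave 10 to 32 (32 without A, 18 without B, 10 without C and 19 without D). With all gene UMIs as the total the top 10 genes held 10.8%. Thinning to 5000 UMIs gave 1761 genes per cell and 57 in every cell, and to 20000 it gave 3622 and 295. Library differences numbered 573 at 2-fold and 328 at a minimum of 5 UMIs. The other 52 comparisons of such summary values moved by less than their limit, which for counts was 1.5-fold. Within that limit, the count of 1050 fell to 750 without the highest cell of each gene and library. Of the 68 named genes that were called, 25 then no longer passed. No paired analysis was possible because the cells form 1 sample with no animal named; the RV minus LV difference within each library is given as a description. Depth limits spread below about 10 UMIs per cell, where spike-ins vary as much as genes.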
